A study of Mus musculus with 21 samples.

Results

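The response of mouse macrophages to 4 h of lipopolysaccharide (LPS) was described across all expressed genes, beyond the cytokines at the top of that response. The comparison used 4 of the 21 libraries of the series, 2 of cells given LPS for 4 h and 2 of untreated cells of the same 4 h set, and it covered the 7651 genes that passed a filter on low counts out of 34573 in the count table. All cells were bone-marrow-derived macrophages (BMDMs) of C57bl/6 mice aged 12 weeks, grown from marrow for 6 days in medium conditioned by L929 cells, which supplied the growth factor M-CSF. In the rest of the study, cells were given succinate, a metabolite of the tricarboxylic acid (TCA) cycle, or dimethyl malonate (DMM), an ester of the succinate dehydrogenase inhibitor malonate, for 3 h, and then LPS or no LPS for 4 or 48 h. The 4 libraries described here received neither compound. The sources used here do not state the dose of LPS. Whether replicates A and B were separate cultures or animals is not in the labels, and the p-values then cover only how far these samples spread, possibly for technical reasons. Which untreated columns belong to the 4 h set was read from their numbering. An alternative with all untreated libraries merged does not use that reading.

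LPS is a component of the outer membrane of Gram-negative bacteria. On macrophages it is bound by Cd14 and by Tlr4 with its partner Ly96, and the adaptors Myd88 and Ticam1 pass the signal to NF-kB and AP-1 transcription factors and to interferon regulatory factors. A first wave of transcripts encodes cytokines, chemokines and feedback inhibitors, and secreted type I interferon then induces a further wave of antiviral genes through STAT factors.

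The 4 libraries held 852811 (untreated A), 832129 (untreated B), 1203399 (LPS A) and 1290897 (LPS B) counts, within the range of 662186 to 1546867 over all 21. Levels are CPM, the field's usual count of a gene relative to its library's total, with library totals scaled by the TMM method (trimmed mean of M values), and they are compared between libraries, not between genes, since they are not divided by transcript length. Genes that were called lower held 23.2% and 21.3% of all counts in the untreated libraries and 4.58% and 4.84% after LPS. Genes that were called higher held 12.999% and 11.98% in the untreated libraries and 48.4% and 48.9% after LPS, of which Saa3, an acute-phase transcript, held 6.73% and 7.33%. The TMM factors were 1.15 and 1.04 in the untreated and 0.782 and 0.721 in the LPS libraries. All 14 macrophage markers were tested and present in the 4 libraries, and 6 of them rose and 3 fell. Markers of other cell types were sparse: of the 14 neutrophil markers 6 (among them Ly6g, Ltf and Elane), of the 10 B cell markers 6 (among them Cd79a and Pax5) and of the 12 T and NK cell markers 8 (among them Cd3e and Nkg7) had no count in any of the 4. Of the marker lists with a gene that fell, the T and NK cell list moved through Cd28 (140, 94, 1 and 0 counts in untreated A, untreated B, LPS A and LPS B), the dendritic cell list through Cd83 (28, 28, 0 and 0 counts) and the endothelial list through Vwf (19, 13, 2 and 0 counts). The fibroblast and stroma list rose from 7.19 and 7.02 to 47.1 and 28.1 CPM in sum, with both of its tested genes, Dcn and Acta2, called higher, and Dcn had 0, 0, 7 and 5 counts. The part of these cell types in the results was not tested. In bulk RNA, fewer cells of a type and less RNA per cell cannot be told apart.

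Over all genes, 1871 of 7651 were called at an adjusted p under 0.05 in edgeR's quasi-likelihood test with Benjamini-Hochberg (BH) adjustment, which is 24.5% of those tested. Of these, 1041 rose (13.6% of genes tested) and 830 fell (10.8%). Of the 1871 genes, 1870 had arms that did not overlap. The exception, Gm12999, was singled out after its values were seen. For every called gene named below, both LPS libraries therefore lay on one side of both untreated libraries. Calling favours such separation, and the rule for naming the highest and lowest folds required it, so it adds no support to the calls. Its share over all genes tested was not computed. The median log2 difference, LPS minus untreated, was -0.05 over all genes tested, 1.97 over those that rose and -2.05 over those that fell. Changes of at least 4-fold in the fitted log2 difference were found for 506 genes that rose and 424 that fell. Fitted changes of at least 64-fold were found for 102 and 40. Where an arm held no count, the fitted value can exceed the bound used below, as for Cfb (9.54, bound of 53.4-fold). The plot of mean levels shows both groups on either side of the diagonal.

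**Figure D1:**
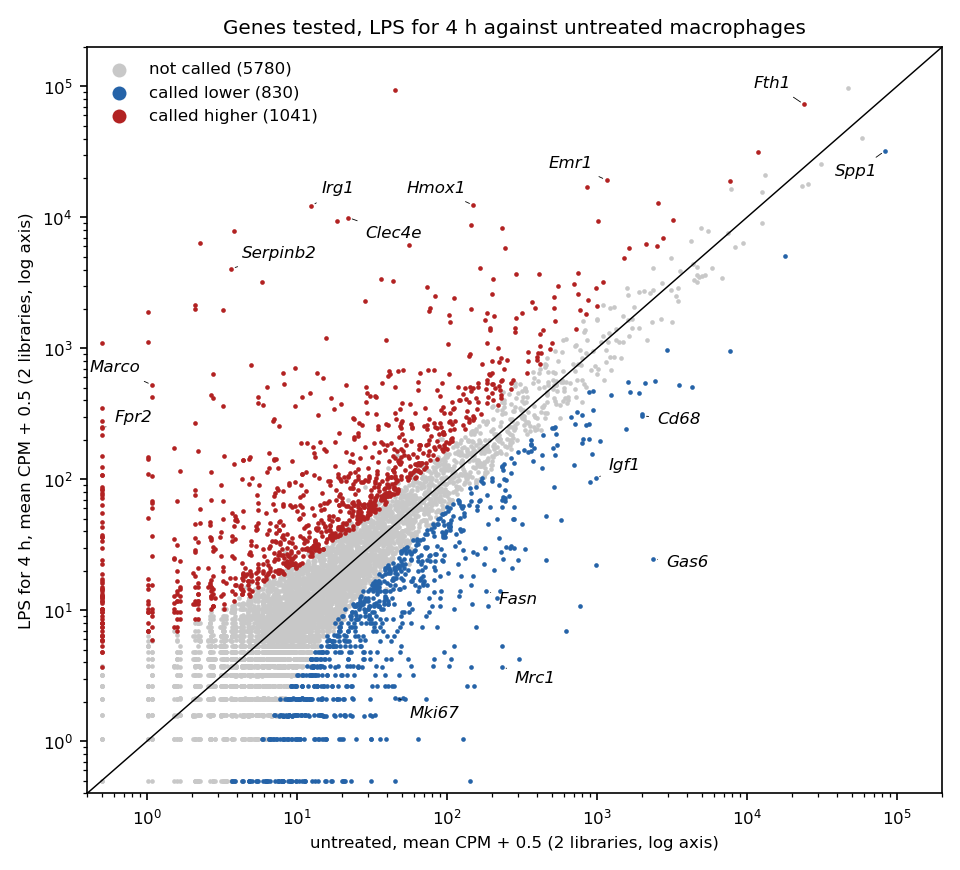
Mean level of each of the 7651 genes tested in the 2 untreated libraries (x axis) and in the 2 LPS libraries (y axis), as CPM + 0.5 on log axes, with genes called higher in red (1041), called lower in blue (830) and not called in grey. Fpr2, Serpinb2 and Irg1 lie far above the diagonal, Gas6 and Mrc1 far below, and Spp1 and Fth1 lie near it at high levels.

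Calls depended on the level. When genes were split by mean level into 5 bins, 43% of the highest bin were called and its median standard error (SE) was 0.31 on the log2 scale, against 15.6% called and a median SE of 0.66 in the bin next to the lowest. For 842 genes (11.0%) the 95% interval of the log2 difference lay within 1 in both directions. A further 4938 genes (64.5%) were not called while their interval reached beyond 1, so a 2-fold change of those genes is not excluded by these values. Values after ± below are SEs of log2 differences, and adjusted p-values are from edgeR's quasi-likelihood test with BH adjustment over all 7651 genes. Where the 2 libraries of an arm held no count, the fold is given as a limit computed with 3 counts over the pair, and where they held 1 to 3 counts, it is a ratio of counts with its 95% counting interval. After a list, counts are also given for those of 8 alternatives that lowered them by more than 1.5 times. Counts that merged untreated libraries raised from 1 or more by more than 1.5 times are given as well, and other raised counts are not. List counts are to be read beside the 24.5% called over all genes and the 43% called in the highest bin. Such intervals and bounds cover counting error only.

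A list of genes was set aside that holds the best-known inflammatory LPS genes and some others. Outside it, and with at least 50 CPM in the higher arm, the 12 highest folds by fitted log2 difference included those of surface receptors. Symbols of predicted or unnamed genes were left out as well. Fpr2, a formyl peptide receptor that guides cells toward bacterial products, rose from 0 and 0 to 201 and 289 CPM (at least 149-fold higher, adjusted p = 5.37e-13). Gja1, the gap junction protein connexin 43, rose from 0 and 0 to 218 and 219 CPM (at least 133-fold higher, adjusted p = 2.88e-16). Cd38, an enzyme that consumes NAD, rose from 1.03 and 0 to 1058 and 1171 CPM (2038-fold higher, counting interval 365 to 80522, adjusted p = 1.04e-16). All 3 genes were at or next to 0 in both untreated libraries. Serpinb2, an inhibitor of plasminogen activators, rose from 5.14 and 1.17 to 3829 and 4286 CPM (10.23 ± 0.59, adjusted p = 4.88e-17). Hp, which encodes the haemoglobin-binding haptoglobin, rose from 2.05 and 1.17 to 2061 and 1918 CPM (1213-fold higher, counting interval 415 to 5884, adjusted p = 4.88e-17). Marco, a scavenger receptor for bacteria, rose from 0 and 1.17 to 499.7 and 550.2 CPM (959.8-fold higher, counting interval 172 to 37949, adjusted p = 1.61e-16). In each of these 3 the LPS libraries lay close to each other and far above the untreated pair. Ass1, which regenerates arginine from citrulline, rose from 0 and 0 to 88.8 and 126 CPM (at least 65.6-fold higher). The chemokine gene Ccl12 rose from 0 and 0 to 58.9 and 105 CPM (at least 49.8-fold higher). Fpr1 rose from 3.08 and 2.34 to 1683 and 2217 CPM (9.42 ± 0.59). Slfn1, Pilrb1 and Cfb completed the 12 highest, with bounds of 74.7-fold, 50.8-fold and 53.4-fold. The annotation places Fpr2 over Fpr3 and Cfb over Gm20547 on the same strand, so their counts are uncertain, and Pilrb1 and Slfn1 belong to families of similar copies.

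Outside the same list, with the same minimum level and left-out symbols, the 12 lowest folds were those of genes with different roles. Cd28, which is on that list, fell further, with a log2 difference of -7.60. Gas6, the ligand that bridges dying cells to the receptors Axl and Mertk, fell from 2179 and 2588 to 24.6 and 23.8 CPM (-6.62 ± 0.47, adjusted p = 5.32e-15). Rgs2, a brake on G protein signalling, fell from 73.95 and 53.8 to 1.07 and 0 CPM (119.99-fold lower, counting interval 21.1 to 4779, adjusted p = 1.68e-10). Crip1, a small LIM-domain protein, fell from 328 and 275 to 4.28 and 3.24 CPM (-6.28 ± 0.48, adjusted p = 3.88e-14). These genes differed in their untreated level and were all at 24.6 CPM or lower after LPS. Mrc1, the mannose receptor CD206, fell from 227 and 239.7 to 6.42 and 0 CPM (-6.13 ± 0.56, adjusted p = 1.13e-11). Slc5a3, the sodium/myo-inositol cotransporter, fell from 688 and 565 to 7.49 and 5.41 CPM (-6.58 ± 0.43, adjusted p = 9.74e-16), and it shares exon sequence on the same strand with Mrps6, so its counts are uncertain. Fcrls, an Fc receptor-like gene of macrophages and microglia, fell from 915 and 1045 to 18.2 and 24.9 CPM (-5.50 ± 0.46). Among the others were Lsp1, a leukocyte actin-binding protein, Sesn1, a stress-responsive regulator of growth signalling, and Rasgrp3, an activator of Ras, with log2 differences of -5.90, -4.94 and -5.44. Pcp4l1 and Syngr1 followed, with -6.06 and -5.56. The last of the 12, the immunoglobulin heavy chain gene Ighm, fell from 73.95 and 70.2 to 2.14 and 1.08 CPM (44.7-fold lower, counting interval 14.98 to 219.7, lost with all 21 libraries with adjusted p = 0.0626). The summed level of the 10 B cell markers moved with it, from 74.98 and 70.2 to 3.21 and 2.16 CPM, and Ighm held nearly all of that sum, while Cd79a, Cd79b and Pax5 had no count. The part of B cells in the Ighm value was not tested.

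The largest gains in CPM fell on genes with other roles. Fth1, the heavy chain of the iron store ferritin, rose from 21387 and 26719 to 67629 and 78272 CPM (1.60 ± 0.45, adjusted p = 0.00632, lost without LPS B and without untreated A with adjusted p = 0.0609 to 0.0995). Emr1, the gene of the macrophage surface protein F4/80, rose from 1071 and 1249 to 17788 and 20706 CPM (4.05 ± 0.49, adjusted p = 7.18e-09). Cybb, the catalytic subunit of the phagocyte NADPH oxidase, rose from 848 and 879 to 15083 and 18883 CPM (4.30 ± 0.49, adjusted p = 1.78e-09). The proportional change was larger for Emr1 and Cybb than for Fth1, which was already abundant. Hmox1, the haem-degrading enzyme, rose from 161 and 138 to 11819 and 12958 CPM (6.37 ± 0.51). Irg1, the enzyme that makes itaconate, rose from 12.3 and 11.7 to 11501 and 12948 CPM (9.98 ± 0.63). Clec4e, the C-type lectin Mincle, rose from 26.7 and 16.4 to 8465 and 11489.9 CPM (8.84 ± 0.59). B2m, the light chain of MHC class I, rose from 12122 and 11789 to 31242 and 31698 CPM (1.40 ± 0.43, lost on leaving out any 1 of the 4 libraries and with all 21 libraries with adjusted p = 0.0617 to 0.113). Pkm, a glycolytic enzyme, rose from 7833 and 7702 to 19011 and 18662 CPM (1.28 ± 0.42, lost on leaving out any 1 of the 4 libraries and with all 21 libraries with adjusted p = 0.0758 to 0.131). Saa3 and Tmsb4x, an actin-sequestering peptide, completed the 10, with log2 differences of 11.05 and 2.35.

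On the falling side, Spp1 encodes osteopontin, a secreted matrix protein. Spp1 fell from 81361 and 85506 to 28527 and 35885 CPM (-1.37 ± 0.46, adjusted p = 0.0225, lost on leaving out any 1 of the 4 libraries, with all 21 libraries and with merged untreated libraries with adjusted p = 0.0561 to 0.199). Lgals3, the lectin galectin-3, fell from 17437 and 18662 to 4937 and 5249 CPM (-1.83 ± 0.43, adjusted p = 0.0011). Gpnmb, a transmembrane glycoprotein of lysosome-rich macrophages, fell from 7508 and 7869.97 to 853 and 1059 CPM (-3.01 ± 0.46, adjusted p = 1.53e-06). In each of these genes both LPS libraries lay below both untreated ones. Sepp1, the selenium carrier selenoprotein P, fell from 3947 and 4683 to 490.1 and 515 CPM (-3.10 ± 0.45). Lipa, the lysosomal acid lipase, fell from 3362 and 3735 to 465 and 584 CPM (-2.76 ± 0.41). Cd68, a lysosomal glycoprotein used as a macrophage marker, fell from 2039.8 and 1981 to 279 and 331 CPM (-2.72 ± 0.40). Gas6, Slc6a6 (the taurine transporter), Laptm5 and Serinc3 were the others of the 10 largest losses in CPM, the last 3 with log2 differences of -1.61, -2.11 and -2.67.

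**Figure D2:**
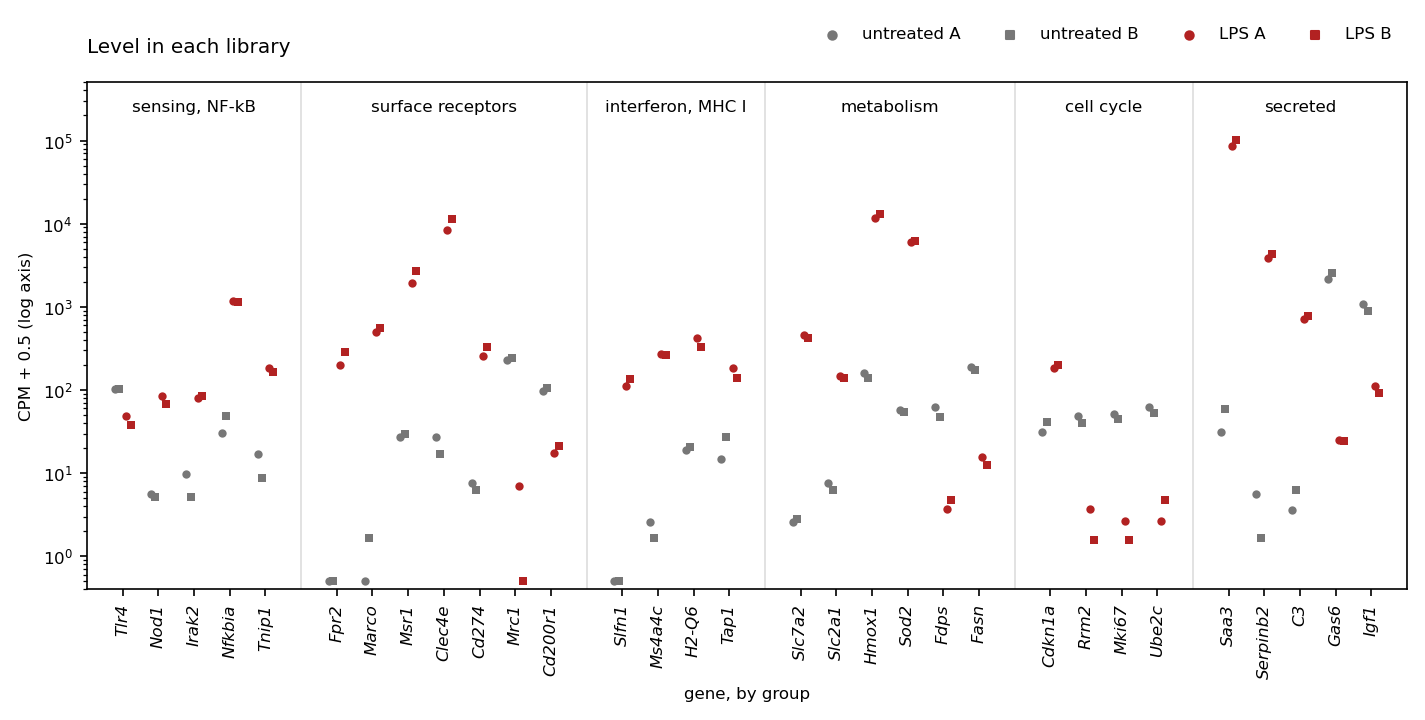
Level of named genes in each of the 4 libraries, as CPM + 0.5 on a log axis, with untreated libraries in grey, LPS libraries in red, replicate A as circles and replicate B as squares. In each gene the 2 libraries of a treatment lie apart from the 2 of the other, as for Nfkbia, which rose, and Tlr4, which fell.

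Genes of LPS sensing moved in both directions: 8 of 23 tested genes rose, 2 fell and 13 did not pass, with a median log2 difference of 0.06. Without LPS A, without untreated A and without untreated B 1 fell. The receptor gene Tlr4 fell from 103 and 102 to 48.2 and 37.8 CPM (-1.25 ± 0.27, adjusted p = 4.08e-04). Its inhibitory homologue Cd180 fell from 167 and 149.7 to 55.6 and 68.1 CPM (-1.36 ± 0.40, lost on leaving out any 1 of the 4 libraries with adjusted p = 0.0544 to 0.121). Tlr4 was nearly equal in the untreated libraries, and both LPS libraries lay well below. Nod1, a cytosolic sensor of bacterial peptidoglycan, rose from 5.14 and 4.68 to 83.5 and 67.02 CPM (3.90 ± 0.38, adjusted p = 4.46e-11). Irak2, a kinase of the Myd88 complex, rose from 9.24 and 4.68 to 80.3 and 84.3 CPM (3.52 ± 0.37, adjusted p = 3.22e-10). Tlr2, the receptor for bacterial lipoproteins, rose from 24.7 and 21.05 to 64.2 and 65.9 CPM (1.50 ± 0.31, lost with merged untreated libraries with adjusted p = 0.112). Also called higher were Cd14, Myd88, Tlr1, Ripk2 and Unc93b1. The Tlr4 partner Ly96 was at 1.03 and 3.51 CPM untreated and 2.14 and 5.41 CPM after LPS (0.75 ± 0.99, adjusted p = 0.654).

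The NF-kB list, of subunits and inhibitors of that factor, rose together: 13 of 21 tested genes rose and 8 did not pass, with a median log2 difference of 2.33, against 13.6% of all genes called higher. The members with the smallest p include inhibitors that feed back on the pathway. Nfkbia, which holds NF-kB in the cytoplasm and is resynthesised after activation, rose from 29.8 and 47.9 to 1171 and 1132 CPM (4.89 ± 0.44, adjusted p = 4.49e-12). Tnip1, which acts with the deubiquitinase Tnfaip3, rose from 16.4 and 8.19 to 185 and 165 CPM (3.80 ± 0.34, adjusted p = 4.11e-12). Tank, a scaffold of kinases upstream of NF-kB and IRF3, rose from 22.6 and 29.2 to 152 and 141 CPM (2.50 ± 0.30, adjusted p = 1.05e-08). The LPS libraries agreed closely in each, and lay far above the untreated pair. Among the subunits, Nfkb2 and Relb were called, while Nfkb1 was at 12.3 and 17.5 CPM untreated and 25.7 and 9.73 CPM after LPS (0.26 ± 0.43, adjusted p = 0.733) and Rel at 6.16 and 5.85 CPM untreated and 7.49 and 6.49 CPM after LPS (0.21 ± 0.62, adjusted p = 0.856).

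Promoter windows of 300 bases, from 250 before to 50 after each gene's annotated start, were taken from RefSeq (GRCm38.p6). One window was available for 22862 genes and for 4361 of the 7651 genes tested. The kB consensus, searched on both strands, occurred in 4.26% of all windows, in 5.34% of those of genes tested, in 8.55% of the 608 windows of genes that rose and in 4.97% of the 503 of genes that fell. Of the 13 NF-kB genes that rose, 8 had a window and 5 of those held the motif. Of the 13 MHC class I genes that rose, 9 had a window and 6 held it. The 3 members of the NF-kB list with the smallest p and a match before the start show it in capitals, 5′ to 3′ on the gene's strand, with flanking bases in lower case. The stretches lie at chr11:54962962-54963021 (minus strand, Tnip1), chr12:55492648-55492701 (minus strand, Nfkbia) and chr6:65590319-65590378 (plus strand, Tnip3). Capitals mark 1 match per gene, which in Tnip1 and Nfkbia is read on the opposite strand. The window of Tnip1 held 3 matches, which overlap one another within the printed stretch and are not separate sites. A match is a description of the letters, not of binding.
Tnip1: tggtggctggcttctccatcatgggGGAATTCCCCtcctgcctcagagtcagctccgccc
Nfkbia: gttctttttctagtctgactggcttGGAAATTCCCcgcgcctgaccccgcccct
Tnip3: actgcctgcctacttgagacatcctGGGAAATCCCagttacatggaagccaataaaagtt

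Of a list of IRF, STAT and related transcription factors, 10 of 18 tested genes rose and 8 did not pass, with a median log2 difference of 1.18. In DESeq2 and with all 21 libraries 5 rose, and without LPS A and without untreated B 6 rose. Ets2, an ETS-family factor included in that list, rose from 54.4 and 35.1 to 508 and 501 CPM (3.48 ± 0.33, adjusted p = 2.12e-11). Stat2 rose from 48.3 and 52.6 to 153 and 174 CPM (1.70 ± 0.29, adjusted p = 1.01e-05). Stat2 encodes a part of the complex through which type I interferon acts. Among AP-1 and immediate early factors, 6 of 13 tested genes rose, 1 fell and 6 did not pass, with a median log2 difference of 0.93. 0 fell in DESeq2, without LPS B, without untreated A, without untreated B and with all 21 libraries, and without LPS B the median was 0.55. Junb, an AP-1 subunit, rose from 24.7 and 19.9 to 111 and 110.3 CPM (2.30 ± 0.33, adjusted p = 3.64e-07, lost with all 21 libraries with adjusted p = 0.0556). The small Maf factor gene Mafg rose from 18.5 and 24.6 to 105 and 103 CPM (2.27 ± 0.33). Jun, another AP-1 subunit, was at 25.7 and 38.6 CPM untreated and 28.9 and 38.9 CPM after LPS (0.09 ± 0.32, adjusted p = 0.889). Atf3, a stress-induced repressor, was at 62.7 and 88.9 CPM untreated and 64.2 and 67.02 CPM after LPS (-0.20 ± 0.32, adjusted p = 0.717).

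The interferon-inducible antiviral genes rose broadly: 38 of 47 tested genes rose and 9 did not pass, with a median log2 difference of 2.07. Slfn1, of the Schlafen family, rose from 0 and 0 to 110.2 and 135 CPM (at least 74.7-fold higher, adjusted p = 9.91e-15). Slfn4, of the same family, rose from 0 and 1.17 to 108 and 104 CPM (194-fold higher, counting interval 34.4 to 7690.5, adjusted p = 8.74e-13). Ms4a4c, a membrane protein of the MS4A family, rose from 2.05 and 1.17 to 269.7 and 266 CPM (163-fold higher, counting interval 55.5 to 794, adjusted p = 5.74e-13). All 3 were at 2.05 CPM or lower without LPS, and all have close relatives in the genome, so their counts are uncertain. The other members that rose include Isg15, Rsad2, Ifih1, Ddx58, Oasl1 and Bst2, which encode sensors and effectors against viruses. Of the GTPases of the GBP and IRG families, which attack vacuoles that hold microbes, 5 of 11 tested genes rose and 6 did not pass, with a median log2 difference of 1.86. 3 rose in DESeq2 and without untreated B, and without untreated B the median was 3.01. Gbp2 rose from 1.03 and 1.17 to 18.2 and 20.5 CPM (17.7-fold higher, counting interval 4.56 to 152). Ifi47 rose from 18.5 and 19.9 to 99.5 and 95.1 CPM (2.34 ± 0.30), and it shares exon sequence with Olfr56.

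The motif GAAANNGAA, the core of the element bound by interferon-activated factors, was searched on both strands of the same windows. It occurred in 8.62% of all windows, in 7.98% of those of genes tested, in 14.6% of those of genes that rose and in 7.55% of those of genes that fell. Of the 38 antiviral genes that rose, 28 had a window and 18 of them (64.3%) held the motif. The 3 with the smallest p and a match before the start are printed as above, with the match in capitals on either strand. They lie at chr19:11518328-11518386 (plus strand, Ms4a6b), chr1:174031856-174031914 (minus strand, Ifi205) and chr19:34640780-34640838 (plus strand, Ifit1). In Ifit1 the capitals are the motif read on the opposite strand, and its window held 3 matches, while that of Ifi205 held 2.
Ms4a6b: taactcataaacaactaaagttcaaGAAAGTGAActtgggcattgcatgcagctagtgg
Ifi205: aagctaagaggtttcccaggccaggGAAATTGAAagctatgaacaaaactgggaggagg
Ifit1: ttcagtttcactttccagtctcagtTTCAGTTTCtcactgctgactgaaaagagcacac

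Antigen presentation by MHC class I and protein breakdown by the proteasome, which supplies its peptides, rose together. For MHC class I and peptide loading, 13 of 19 tested genes rose and 6 did not pass, with a median log2 difference of 1.40. Without untreated B 7 rose. H2-Q6, a class I heavy chain with near-identical copies, rose from 18.5 and 19.9 to 421 and 324 CPM (4.27 ± 0.42, adjusted p = 5.90e-10). Tap1, of the peptide transporter into the endoplasmic reticulum, rose from 14.4 and 26.9 to 185 and 139 CPM (2.98 ± 0.33, adjusted p = 8.32e-10), and it overlaps Psmb9 on the opposite strand. Both LPS libraries were far above both untreated ones in these genes. For the proteasome, 20 of 39 tested genes rose, 1 fell and 18 did not pass, with a median log2 difference of 0.85. 12 rose in DESeq2, 11 rose without untreated B, and 10 rose with all 21 libraries. Psma6, of the core ring, rose from 49.3 and 39.8 to 256 and 381 CPM (2.83 ± 0.35, adjusted p = 1.40e-08). Psmb8, an immunoproteasome subunit that interferon induces, rose from 174 and 111 to 523 and 498 CPM (1.84 ± 0.34). Psmb5, the constitutive subunit that Psmb8 replaces, rose from 79.1 and 60.8 to 268 and 244 CPM (1.87 ± 0.34). The 1 gene that fell was Psmd8, of the regulatory cap, with a log2 difference of -1.44. For MHC class II presentation, 1 of 9 tested genes rose and 8 did not pass, with a median log2 difference of 0.09. The gene that rose was March1, the ubiquitin ligase that removes class II from the surface, with a log2 difference of 4.16, while Cd74 and the class II chains H2-Aa, H2-Ab1 and H2-Eb1 did not pass.

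Feedback regulators of kinase and cytokine signalling moved in both directions: 5 of 21 tested genes rose, 5 fell and 11 did not pass, with a median log2 difference of -0.34. 3 fell with merged untreated libraries, in DESeq2, without LPS A, without untreated A and with all 21 libraries, and 2 fell without LPS B and without untreated B. Dusp1, a phosphatase of the p38 and JNK kinases, rose from 3.08 and 1.17 to 53.5 and 35.7 CPM (4.28 ± 0.56, adjusted p = 8.73e-08). Dusp6, a phosphatase of ERK, rose from 10.3 and 10.5 to 112 and 108 CPM (3.39 ± 0.39, adjusted p = 2.47e-09). Rgs18, like Rgs2 above a regulator of G protein signalling, fell from 28.8 and 21.05 to 2.14 and 4.32 CPM (-2.91 ± 0.53, adjusted p = 2.95e-05). The list split within its families, since the phosphatase genes Dusp3 and Dusp4 fell while Dusp1, Dusp6 and Dusp16 rose. Of regulators of mRNA decay, 5 of 24 tested genes rose, 1 fell and 18 did not pass, with a median log2 difference of 0.17, and 25% called against 24.5% of all genes. In DESeq2, without untreated A and without untreated B 2 rose, without LPS A and with all 21 libraries 1 rose, and without LPS B 3 rose. Zc3h12a, the RNase regnase-1, which degrades cytokine transcripts, rose from 0 and 4.68 to 26.8 and 31.3 CPM (3.66 ± 0.67, adjusted p = 3.51e-05). Zfp36l2, which binds AU-rich elements, fell from 24.7 and 26.9 to 4.28 and 6.49 CPM (-2.23 ± 0.49).

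Cytokine receptors moved in both directions: 11 of 25 tested genes rose, 5 fell and 9 did not pass, with a median log2 difference of 0.85. 3 fell in DESeq2 and without LPS A. Tnfrsf1b, the receptor TNFR2, rose from 78.1 and 74.8 to 1974 and 2106 CPM (4.74 ± 0.43, adjusted p = 6.95e-12). Il4ra, the receptor chain for interleukin-4 and interleukin-13, rose from 39.03 and 38.6 to 264 and 261 CPM (2.75 ± 0.31, adjusted p = 2.23e-09). Il2rg, the common gamma chain, had a log2 difference of 4.68, and its exons overlap Gm20489. The receptors of transforming growth factor beta fell. Tgfbr2 fell from 256 and 305 to 43.9 and 54.05 CPM (-2.51 ± 0.32, adjusted p = 2.49e-08). Tgfbr1 fell from 36.98 and 37.4 to 10.7 and 8.65 CPM (-1.93 ± 0.36, adjusted p = 4.93e-05). Of the TNF superfamily and co-stimulation list, 8 of 18 tested genes rose, 3 fell and 7 did not pass, with a median log2 difference of 1.31 (1.30 with genes at 0 at their bound). Without LPS A 1 fell. Cd274, the checkpoint ligand PD-L1, rose from 7.19 and 5.85 to 254 and 328 CPM (5.45 ± 0.46, adjusted p = 5.05e-12). The death receptor gene Fas rose from 1.03 and 1.17 to 62.1 and 73.5 CPM (61.96-fold higher, counting interval 16.8 to 517). Cd200r1, an inhibitory receptor of myeloid cells, fell from 96.5 and 105 to 17.1 and 20.5 CPM (-2.41 ± 0.30).

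G protein-coupled receptors for chemoattractants, purines and lipids had 11 of 31 tested genes that rose, 5 that fell and 15 that did not pass, with a median log2 difference of 0.67. 3 fell in DESeq2 and with all 21 libraries. Gpr84, a receptor for medium-chain fatty acids, rose from 0 and 1.17 to 468 and 378 CPM (774-fold higher, counting interval 139 to 30608, adjusted p = 1.98e-15). Cxcr4, the receptor for Cxcl12, fell from 60.6 and 43.3 to 3.21 and 0 CPM (32.5-fold lower, counting interval 10.8 to 161, adjusted p = 4.08e-08). Ptafr, the receptor for platelet-activating factor, fell from 136 and 105 to 38.5 and 27.02 CPM (-1.88 ± 0.29, adjusted p = 2.24e-06). With Fpr1 and Fpr2 above, receptors of formyl peptides stood at the high end and the receptor of a retention chemokine at the low end of the list.

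Lectins and Fc receptors rose in most cases: 17 of 26 tested genes rose, 4 fell and 5 did not pass, with a median log2 difference of 1.78. In DESeq2, without LPS B, without untreated A and with all 21 libraries 2 fell. Pilra, an inhibitory receptor, rose from 3.08 and 2.34 to 316 and 406 CPM (6.99 ± 0.45, adjusted p = 1.01e-15). Siglece, a sialic acid-binding inhibitory receptor, rose from 1.03 and 0 to 139 and 148 CPM (263-fold higher, counting interval 46.7 to 10409.5, adjusted p = 2.29e-15). Both were next to 0 in untreated cells. Scavenging and the uptake of dying cells leaned the other way: 7 of 27 tested genes rose, 12 fell and 8 did not pass, with a median log2 difference of -0.52, where 10.8% of all genes were called lower. With merged untreated libraries the median was -0.85. Msr1, the class A scavenger receptor, rose from 26.7 and 29.2 to 1915 and 2679.8 CPM (6.36 ± 0.48, adjusted p = 4.46e-14). Cd5l, a secreted protein of tissue macrophages, fell from 122 and 173 to 13.9 and 7.57 CPM (-3.76 ± 0.37, adjusted p = 5.72e-11). Scarb1, the high-density lipoprotein receptor SR-B1, fell from 166 and 149.7 to 29.96 and 22.7 CPM (-2.58 ± 0.31, adjusted p = 6.49e-09). Within this list, Marco and Msr1, which bind bacteria and modified lipoproteins, were high after LPS, and Gas6, Cd5l and Scarb1 were low.

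Adhesion genes moved in both directions: 11 of 27 tested genes rose, 7 fell and 9 did not pass, with a median log2 difference of 0.86. Without LPS B the median was 0.50. Itgal, the alpha chain of LFA-1, rose from 1.03 and 2.34 to 181 and 149 CPM (101-fold higher, counting interval 34.1 to 491, adjusted p = 2.66e-15). Itgam, the alpha chain of Mac-1 and complement receptor 3, rose from 160.2 and 169.6 to 3979.6 and 4185 CPM (4.63 ± 0.43, adjusted p = 1.23e-11). Icam1, the ligand of LFA-1, rose from 24.7 and 22.2 to 231 and 192 CPM (3.17 ± 0.30, adjusted p = 1.70e-11). The tetraspanins Cd9 and Cd81 fell, with log2 differences of -3.23 and -3.50. Genes of the actin cytoskeleton and its regulators had 20 of 50 tested genes that rose, 3 that fell and 27 that did not pass, with a median log2 difference of 0.68 (0.67 with genes at 0 at their bound). Marcksl1, an actin-regulating substrate of protein kinase C, rose from 3.08 and 7.02 to 329 and 439.97 CPM (6.25 ± 0.55, adjusted p = 4.44e-10). Plek, a platelet and leukocyte kinase substrate, rose from 349 and 289 to 1641 and 2087 CPM (2.55 ± 0.37). Gsn, the actin-severing protein gelsolin, fell from 904 and 882 to 287 and 245 CPM (-1.75 ± 0.35).

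Membrane traffic genes had 12 of 36 tested genes that rose, 5 that fell and 19 that did not pass, with a median log2 difference of 0.48. Ehd1, of endocytic recycling, rose from 25.7 and 31.6 to 526 and 479 CPM (4.13 ± 0.36, adjusted p = 1.35e-12). Rab20, a GTPase of phagosomes, rose from 3.08 and 2.34 to 56.7 and 41.1 CPM (4.10 ± 0.48). Arl8b, which moves lysosomes along microtubules, fell from 242 and 243 to 65.3 and 70.3 CPM (-1.84 ± 0.30). In the lysosome falls outnumbered rises: 6 of 45 tested genes rose, 14 fell and 25 did not pass, with a median log2 difference of -0.41. Ctsc, which activates granule proteases, rose from 273 and 304 to 3711 and 3719 CPM (3.69 ± 0.41, adjusted p = 1.39e-09). The proton pump subunit gene Atp6v0d2 fell from 21.6 and 33.9 to 2.14 and 0 CPM (25.4-fold lower, counting interval 6.68 to 216). Atp6v1c1, of the same pump, fell from 241 and 225 to 46.01 and 76.8 CPM (-1.92 ± 0.30). Lipa, given above, was also among the genes that fell. Of the autophagy and ubiquitin list, 12 of 37 tested genes rose, 3 fell and 22 did not pass, with a median log2 difference of 0.63. With all 21 libraries 7 rose. Traf1, an adaptor of TNF receptors, rose from 2.05 and 7.02 to 109 and 92.97 CPM (4.49 ± 0.40, adjusted p = 2.76e-12). Map1lc3b, a component of the autophagosome membrane, fell from 160.2 and 171 to 62.1 and 76.8 CPM (-1.25 ± 0.29).

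Among secreted products, complement had 4 of 12 tested genes that rose and 8 that did not pass, with a median log2 difference of 0.70. That is 33.3% called, against 24.5% of all genes. C3, the central component, rose from 3.08 and 5.85 to 712 and 782 CPM (7.37 ± 0.53, adjusted p = 9.59e-15). Cfp, the stabiliser properdin, rose from 218 and 271 to 5961 and 5669.8 CPM (4.57 ± 0.45, adjusted p = 6.20e-11). Both belong, with Cfb, to the alternative pathway, while C1qa, C1qb and C1qc of the classical pathway did not pass. Extracellular proteases, their inhibitors and coagulation genes had 13 of 24 tested genes that rose, 3 that fell and 8 that did not pass, with a median log2 difference of 1.78 (1.55 with genes at 0 at their bound). Without untreated B 1 fell, and without untreated B the median was 2.96. Procr, the protein C receptor, rose from 1.03 and 0 to 101 and 119.99 CPM (202-fold higher, counting interval 35.8 to 8001, adjusted p = 1.31e-10). Mmp14, a membrane-bound matrix metalloproteinase, rose from 2.05 and 0 to 143 and 199.99 CPM (157-fold higher, counting interval 43.1 to 1301, adjusted p = 1.74e-14, lost with all 21 libraries with adjusted p = 0.0506). Serpinb6a, a protease inhibitor, fell from 718 and 685 to 127 and 131 CPM (-2.44 ± 0.35). Growth factor and matrix signals had 5 of 18 tested genes that rose, 3 that fell and 10 that did not pass, with a median log2 difference of 0.99. Without untreated A the median was 0.54. Igf1, insulin-like growth factor 1, fell from 1088 and 883 to 111 and 91.9 CPM (-3.28 ± 0.39, adjusted p = 6.95e-09). Ebi3, a subunit of interleukin-27, rose from 3.08 and 1.17 to 46.01 and 47.6 CPM (4.35 ± 0.50).

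Several cytokines usual in descriptions of LPS responses had few or no counts, and these genes were singled out after their values were seen. Il6 had 0, 0, 0 and 1 count in untreated A, untreated B, LPS A and LPS B. Il10 had 1, 0, 0 and 0. Il12b, Ifnb1, Csf2 and Il23a had no count in any of the 4 libraries. Cxcl1 had 0, 0, 6 and 12 counts, Cxcl3 0, 0, 10 and 7, and Csf3 0, 0, 9 and 9. The last 3 genes were called higher. The first 6 were not tested, and counts this low do not show them absent.

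Glycolysis, which splits glucose into pyruvate and lactate, was measured by genes of its enzymes, transporters and a regulator: 17 of 21 tested genes rose, 1 fell and 3 did not pass, with a median log2 difference of 2.33. Slc2a1, the glucose transporter GLUT1, rose from 7.19 and 5.85 to 146 and 137 CPM (4.41 ± 0.34, adjusted p = 5.66e-14). Pfkfb3, which makes the activator of phosphofructokinase, rose from 15.4 and 17.5 to 411 and 424 CPM (4.66 ± 0.37, adjusted p = 1.82e-13). Slc16a3, the lactate exporter MCT4, rose from 16.4 and 14.03 to 1227 and 1169.6 CPM (6.28 ± 0.47, adjusted p = 3.67e-14). The other genes that rose span the path from Hk1, Hk2 and Hk3 through Gapdh and Eno1 to Ldha. Aldoc, an aldolase isoform, fell from 103 and 86.5 to 32.1 and 19.5 CPM (-1.87 ± 0.30, adjusted p = 2.87e-06). The list of the TCA cycle, which oxidises the product further, also held linked and cytosolic enzymes, among them Mdh1 and Acly. In that list 2 of 27 tested genes rose, 6 fell and 19 did not pass, with a median log2 difference of 0.14. That is 29.6% called, against 24.5% of all genes. 1 rose with all 21 libraries. Mdh1, the cytosolic malate dehydrogenase, fell from 127 and 109 to 23.5 and 20.5 CPM (-2.42 ± 0.31, adjusted p = 3.46e-08), while the mitochondrial isoform Mdh2 rose from 93.5 and 95.9 to 224 and 219 CPM (1.23 ± 0.30, adjusted p = 0.00147, lost with all 21 libraries with adjusted p = 0.0677). Fh1, fumarate hydratase, fell from 32.9 and 31.6 to 9.63 and 10.8 CPM (-1.65 ± 0.38). Acly, which turns exported citrate into acetyl-CoA for lipid synthesis, fell from 261 and 222 to 106 and 92.97 CPM (-1.28 ± 0.29).

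The nuclear genes of oxidative phosphorylation had 6 of 62 tested genes that rose, 2 that fell and 54 that did not pass, with a median log2 difference of 0.24, where 24.5% of all genes were called. In DESeq2 and without untreated B 0 rose, without LPS A and without untreated A 1 fell, without LPS B 1 rose, and with all 21 libraries 0 rose and 1 fell. Ndufs8, of complex I, fell from 77.03 and 53.8 to 20.3 and 12.97 CPM (-1.97 ± 0.35, adjusted p = 1.79e-05). Cox5b, of complex IV, rose from 56.5 and 50.3 to 98.4 and 110.3 CPM (0.96 ± 0.28, lost without LPS B, without untreated B, in DESeq2 and with all 21 libraries with adjusted p = 0.0725 to 0.1). Mitochondrially encoded transcripts took 3.13% and 3.09% of counts in the untreated libraries and 1.41% and 1.97% after LPS, and after division by the TMM factors 2.72% and 2.98% against 1.81% and 2.73%. For the mitochondrial ribosome and import, 2 of 45 tested genes rose and 43 did not pass, with a median log2 difference of -0.02. 1 rose without untreated B. One of the 2 was Timm17a, of the inner membrane import channel, with a log2 difference of 1.81 that lost its call without untreated B with adjusted p = 0.0616.

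Amino acid transporters had 7 of 17 tested genes that rose, 3 that fell and 7 that did not pass, with a median log2 difference of 0.22. Slc7a2, the arginine transporter CAT2, rose from 2.05 and 2.34 to 459 and 416 CPM (7.57 ± 0.43, adjusted p = 4.88e-17). Slc15a3, a peptide transporter of endolysosomes, rose from 10.3 and 11.7 to 123 and 104 CPM (3.36 ± 0.33, adjusted p = 3.28e-11). Slc38a2, a glutamine and alanine transporter, fell from 292 and 198 to 67.4 and 74.6 CPM (-1.79 ± 0.28, adjusted p = 2.67e-06). One-carbon, serine and polyamine metabolism had 3 of 26 tested genes that rose, 3 that fell and 20 that did not pass, with a median log2 difference of -0.33, and 23.1% called against 24.5% of all genes. 1 fell in DESeq2, without LPS A, without LPS B, without untreated A and with all 21 libraries. The mitochondrial folate enzymes were called higher. Mthfd2 rose from 26.7 and 23.4 to 119 and 119.99 CPM (2.24 ± 0.31, adjusted p = 1.57e-07). Mthfd1l rose from 3.08 and 2.34 to 17.1 and 21.6 CPM (2.77 ± 0.62). Their cytosolic counterpart Mthfd1 fell from 6.16 and 14.03 to 1.07 and 1.08 CPM (9.15-fold lower, counting interval 2.19 to 81.3, lost without LPS A, without LPS B, without untreated B, in DESeq2 and with all 21 libraries with adjusted p = 0.0549 to 0.185). Nucleoside, NAD and purine metabolism had 15 of 26 tested genes that rose, 1 that fell and 10 that did not pass, with a median log2 difference of 1.22. 3 fell with merged untreated libraries. In DESeq2 and without LPS A 0 fell. Bst1, an enzyme related to Cd38, rose from 0 and 0 to 56.7 and 86.5 CPM (at least 43.6-fold higher), and it overlaps Fbxl5 on the opposite strand. Pde4b, which degrades cyclic AMP, rose from 2.05 and 1.17 to 79.2 and 84.3 CPM (49.8-fold higher, counting interval 16.7 to 244, adjusted p = 3.84e-12). Parp1, which uses NAD in DNA repair, fell from 20.5 and 22.2 to 6.42 and 6.49 CPM (-1.71 ± 0.48, lost without LPS A and in DESeq2 with adjusted p = 0.0509 to 0.0522).

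Cholesterol synthesis and uptake fell: 18 of 26 tested genes fell and 8 did not pass, with a median log2 difference of -2.41, against 10.8% of all genes called lower. Fdps, farnesyl diphosphate synthase, fell from 62.7 and 46.8 to 3.21 and 4.32 CPM (-3.83 ± 0.43, adjusted p = 1.17e-09). Idi1, the isomerase of the step before, fell from 48.3 and 49.1 to 5.35 and 4.32 CPM (-3.30 ± 0.42, adjusted p = 2.29e-08). Insig1, which retains the regulator SREBP in the endoplasmic reticulum and is itself induced by it, fell from 165 and 192 to 36.4 and 22.7 CPM (-2.59 ± 0.33, adjusted p = 2.29e-08). The genes that fell run from Hmgcs1 and Pmvk through Sqle and Lss to Dhcr7. The letters TCACNCCAC, of the sterol regulatory element, occurred in 1.19% of all windows, in 0.986% of those of genes tested and in 1.39% of those of genes that fell. Of the 18 cholesterol genes that fell, 11 had a window and 1 of them, Hmgcs1, held the letters, at chr13:119690189-119690247 (plus strand). The letters CCAAT, bound by the factor NF-Y, occurred in 38.2% of all windows and in 39.7% of those of genes tested. They were in 36.5% of windows of genes that rose and in 47.1% of those of genes that fell. Of the cholesterol genes that fell, 10 of 11 windows held them. So did 9 of 9 windows of the MHC class I genes that rose and 7 of 15 of the proteasome genes that rose. The letters are thus not particular to genes that fell.
Hmgcs1: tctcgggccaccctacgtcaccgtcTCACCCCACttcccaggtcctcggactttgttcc

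Fatty acid synthesis, LXR targets and lipid handling had 6 of 31 tested genes that rose, 11 that fell and 14 that did not pass, with a median log2 difference of -0.73. Fasn, fatty acid synthase, fell from 191 and 175 to 14.98 and 11.9 CPM (-3.76 ± 0.35, adjusted p = 1.45e-11). Nceh1, a cholesteryl ester hydrolase, fell from 517 and 406 to 47.1 and 56.2 CPM (-3.16 ± 0.31, adjusted p = 6.62e-11). Acsl1, which activates fatty acids with coenzyme A, rose from 11.3 and 17.5 to 552 and 632 CPM (5.36 ± 0.38, adjusted p = 7.78e-15). Fasn and Nceh1 thus lay lower and Acsl1 higher in both LPS libraries. Lpcat2, which makes platelet-activating factor, rose from 10.3 and 8.19 to 379.9 and 346 CPM (5.27 ± 0.36, adjusted p = 2.60e-15). Ch25h, which makes 25-hydroxycholesterol, rose from 3.08 and 3.51 to 138 and 123 CPM (5.27 ± 0.42, adjusted p = 1.93e-13). Of sphingolipid, phospholipid and phosphoinositide enzymes, 8 of 33 tested genes rose, 5 fell and 20 did not pass, with a median log2 difference of 0.20. 2 fell without LPS B, without untreated B and with all 21 libraries. Pla2g7, which degrades platelet-activating factor, rose from 38.002 and 47.9 to 2970.5 and 3617 CPM (6.26 ± 0.49, adjusted p = 1.22e-13). Pla2g15, a lysosomal phospholipase, fell from 81.1 and 84.2 to 29.96 and 9.73 CPM (-2.05 ± 0.34). Of prostaglandin and leukotriene enzymes, 3 of 13 tested genes rose, 2 fell and 8 did not pass, with a median log2 difference of -0.61 (-0.44 with genes at 0 at their bound). 4 fell with merged untreated libraries. In DESeq2, without LPS A and with all 21 libraries 1 fell, and without LPS A the median was -0.04. Hpgds, which makes prostaglandin D2, fell from 235 and 198 to 12.8 and 10.8 CPM (-4.18 ± 0.32, adjusted p = 7.87e-14). Pla2g4a, which releases arachidonic acid, rose from 22.6 and 12.9 to 71.7 and 67.02 CPM (1.94 ± 0.33). Ptgir, the prostacyclin receptor, rose from 0 and 0 to 10.7 and 22.7 CPM (at least 10.2-fold higher).

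Redox genes had 16 of 36 tested genes that rose, 4 that fell and 16 that did not pass, with a median log2 difference of 1.04. 2 fell without LPS A, without LPS B, without untreated B and with all 21 libraries, and 1 fell without untreated A. Sod2, the mitochondrial superoxide dismutase, rose from 56.5 and 53.8 to 5958 and 6260.1 CPM (6.79 ± 0.51, adjusted p = 3.61e-14). Glrx, glutaredoxin, rose from 30.8 and 40.9 to 3040.1 and 3726 CPM (6.56 ± 0.50, adjusted p = 4.74e-14). Prdx5, a peroxiredoxin, rose from 154 and 136 to 8522 and 9091 CPM (5.92 ± 0.51, adjusted p = 1.12e-12). In all 3 the LPS pair was close together and far above the untreated pair. Gstm1, a glutathione transferase, fell from 94.5 and 67.8 to 19.3 and 22.7 CPM (-1.95 ± 0.32). Iron, copper and zinc genes had 11 of 26 tested genes that rose, 3 that fell and 12 that did not pass, with a median log2 difference of 1.22. Slc25a37, the mitochondrial iron importer, rose from 10.3 and 8.19 to 108 and 83.2 CPM (3.35 ± 0.35, adjusted p = 3.16e-10). Slc31a2, a copper transporter, rose from 23.6 and 33.9 to 434 and 479 CPM (3.99 ± 0.33, adjusted p = 3.79e-13). Ncoa4, which delivers ferritin to lysosomes, fell from 30.8 and 23.4 to 3.21 and 4.32 CPM (-2.82 ± 0.56, adjusted p = 1.04e-04). With Fth1 and Hmox1 above, the ferritin subunit and the haem oxygenase were higher and the ferritin adaptor lower.

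Chaperones of the endoplasmic reticulum had 9 of 30 tested genes that rose and 21 that did not pass, with a median log2 difference of 0.77, and 30% called against 24.5% of all genes. 5 rose in DESeq2 and without LPS A. Ero1l, which drives disulfide formation, rose from 10.3 and 16.4 to 299 and 321 CPM (4.54 ± 0.40, adjusted p = 2.19e-12). P4hb, a protein disulfide isomerase, rose from 534 and 496 to 2061 and 1983 CPM (1.97 ± 0.38, adjusted p = 6.51e-05). Cytosolic heat shock genes had 6 of 26 tested genes that rose, 1 that fell and 19 that did not pass, with a median log2 difference of 0.43, and 26.9% called against 24.5% of all genes. With merged untreated libraries, in DESeq2, without LPS A and without untreated A 0 fell, without LPS B 3 rose and 0 fell, without untreated B 2 rose and 0 fell, and with all 21 libraries 1 rose and 0 fell. Stip1, a co-chaperone, rose from 21.6 and 16.4 to 56.7 and 56.2 CPM (1.56 ± 0.33, adjusted p = 2.75e-04).

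Few genes of ribosomal proteins, tRNA synthetases and ribosome biogenesis were called, where 24.5% of all genes were. Among cytosolic ribosomal proteins, 2 of 78 tested genes fell and 76 did not pass, with a median log2 difference of -0.27. 5 fell with merged untreated libraries. 0 fell without LPS A, and 1 fell without untreated A and with all 21 libraries. Aminoacyl-tRNA synthetases had 2 of 20 tested genes that fell and 18 that did not pass, with a median log2 difference of 0.10. With merged untreated libraries, without LPS A and without untreated B 1 fell, and in DESeq2, without LPS B, without untreated A and with all 21 libraries 0 fell. In ribosome biogenesis, 1 of 27 tested genes fell and 26 did not pass, with a median log2 difference of 0.20. Ribosomal protein transcripts took 3.32% and 2.64% of counts in the untreated libraries and 1.63% and 1.72% after LPS, and after division by the TMM factors 2.88% and 2.54% against 2.08% and 2.38%. Rpl3 fell from 521 and 533 to 215 and 282 CPM (-1.08 ± 0.32, lost without LPS A and with all 21 libraries with adjusted p = 0.0713 to 0.15), and like other ribosomal protein genes it has processed copies in the genome, so its counts are uncertain. Npm1, a nucleolar chaperone, fell from 168 and 149.7 to 54.6 and 60.5 CPM (-1.47 ± 0.28, adjusted p = 7.38e-05). Translation factors had 9 of 38 tested genes that rose, 2 that fell and 27 that did not pass, with a median log2 difference of 0.06, and 28.9% called against 24.5% of all genes. In DESeq2 5 rose and 1 fell, without LPS A 0 fell, without LPS B and without untreated B 4 rose and 1 fell, without untreated A 3 rose and 1 fell, and with all 21 libraries 4 rose and 0 fell. Eif4ebp1, a repressor of cap-dependent initiation, rose from 42.1 and 54.96 to 276 and 231 CPM (2.39 ± 0.35, adjusted p = 1.23e-06). Eif4e, the cap-binding factor it represses, rose from 38.002 and 31.6 to 70.6 and 90.8 CPM (1.21 ± 0.27). Splicing factors had 4 of 44 tested genes that fell and 40 that did not pass, with a median log2 difference of -0.36. 2 fell in DESeq2, without LPS A and without untreated A, and 1 fell without LPS B. Mbnl1, a regulator of alternative splicing, fell from 733 and 688 to 251 and 278 CPM (-1.42 ± 0.34).

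Among the 51 lists, mitosis and cytokinesis held the largest share of genes called lower: 2 of 70 tested genes rose, 54 fell and 14 did not pass, with a median log2 difference of -3.55 (-2.81 with genes at 0 at their bound). With merged untreated libraries 1 rose, and with all 21 libraries 27 fell. Mki67, the proliferation antigen Ki-67, fell from 50.3 and 44.4 to 2.14 and 1.08 CPM (29.5-fold lower, counting interval 9.76 to 146, adjusted p = 1.36e-09). Racgap1, of the central spindle, fell from 52.4 and 37.4 to 0 and 3.24 CPM (28.1-fold lower, counting interval 9.30 to 139, adjusted p = 2.37e-08). Ube2c, which ubiquitinates mitotic cyclins, fell from 61.6 and 52.6 to 2.14 and 4.32 CPM (-4.10 ± 0.46, adjusted p = 1.82e-09, lost with all 21 libraries with adjusted p = 0.0502), and it overlaps Tnnc2 on the opposite strand. Each was at 4.32 CPM or lower in both LPS libraries. The 2 genes that rose were Cdkn1a, the inhibitor p21, and Ccnd3, a G1 cyclin. Cdkn1a rose from 30.8 and 40.9 to 183 and 199 CPM (2.41 ± 0.37, adjusted p = 1.81e-06, lost with merged untreated libraries with adjusted p = 0.0527). Ccnd3 rose from 19.5 and 26.9 to 135 and 134 CPM (2.54 ± 0.33). Of DNA replication and repair genes, 19 of 45 tested genes fell and 26 did not pass, with a median log2 difference of -2.04 (-1.81 with genes at 0 at their bound). 8 fell in DESeq2, 11 fell without LPS A and without untreated A, and 12 fell with all 21 libraries. Rrm1 and Rrm2 encode the large and the small subunit of ribonucleotide reductase. Rrm1 fell from 70.9 and 65.5 to 7.49 and 6.49 CPM (-3.27 ± 0.37, adjusted p = 2.11e-09). Rrm2 fell from 48.3 and 39.8 to 3.21 and 1.08 CPM (-4.29 ± 0.48, adjusted p = 2.52e-09). Mcm7, of the replicative helicase, fell from 35.9 and 30.4 to 2.14 and 4.32 CPM (-3.32 ± 0.50). Many members had few counts.

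The letters TTTGAA, of the cell cycle genes homology region, occurred in 18.5% of all windows, in 11.6% of those of genes tested, in 10.9% of those of genes that rose and in 20.3% of those of genes that fell. Of the 54 mitosis genes that fell, 43 had a window and 29 (67.4%) held the letters, and CCAAT was in the same number of these windows. The 3 with the smallest p and a match before the start lie at chr7:135716447-135716502 (minus strand, Mki67), chr2:164769875-164769928 (plus strand, Ube2c) and chr12:116405393-116405435 (plus strand, Ncapg2, of the condensin complex). Capitals mark 1 match per gene, which in Ube2c is read on the opposite strand, and the window of Mki67 held 2 matches, the other of which is in lower case.
Mki67: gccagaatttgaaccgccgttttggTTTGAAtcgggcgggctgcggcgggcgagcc
Ube2c: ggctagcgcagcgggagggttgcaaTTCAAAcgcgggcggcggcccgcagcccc
Ncapg2: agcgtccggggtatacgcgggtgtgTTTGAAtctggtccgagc

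Chromatin genes had 5 of 44 tested genes that rose, 8 that fell and 31 that did not pass, with a median log2 difference of -0.52, and 29.5% called against 24.5% of all genes. In DESeq2 2 rose, without LPS B and without untreated A 3 rose, with all 21 libraries 5 fell, and without untreated B the median was -0.22. H2afz, the histone variant H2A.Z, fell from 249.6 and 208 to 26.8 and 28.1 CPM (-3.06 ± 0.37, adjusted p = 1.59e-08). Dnmt1, the maintenance DNA methyltransferase, fell from 63.7 and 47.9 to 13.9 and 7.57 CPM (-2.37 ± 0.35, adjusted p = 7.26e-07). Kdm5b, a demethylase of histone H3, rose from 1.03 and 1.17 to 13.9 and 18.4 CPM (14.8-fold higher, counting interval 3.74 to 127, adjusted p = 9.54e-05). Cell death genes, of apoptosis, pyroptosis and necroptosis, had 11 of 28 tested genes that rose, 1 that fell and 16 that did not pass, with a median log2 difference of 0.59. 2 fell with merged untreated libraries. 6 rose in DESeq2, without LPS A and without untreated A, and 7 rose with all 21 libraries. Cflar, an inhibitor of caspase-8, rose from 29.8 and 17.5 to 209.7 and 195 CPM (3.08 ± 0.30, adjusted p = 4.97e-11). Nlrp3, the inflammasome sensor, rose from 2.05 and 4.68 to 56.7 and 46.5 CPM (3.93 ± 0.46, adjusted p = 3.56e-09). Gsdmd, the pore-forming gasdermin, rose from 69.8 and 61.98 to 198 and 169.7 CPM (1.48 ± 0.29). The 1 gene that fell was Bid, a pro-apoptotic relative of Bcl2, with a log2 difference of -2.03.

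Macrophage lineage factors and growth factor receptors had 7 of 23 tested genes that rose, 6 that fell and 10 that did not pass, with a median log2 difference of 0.46. In DESeq2, without LPS B, without untreated B and with all 21 libraries 2 fell, and without untreated A 4 rose. Csf3r, the receptor for G-CSF, rose from 1.03 and 10.5 to 49.2 and 60.5 CPM (3.29 ± 0.49, adjusted p = 1.84e-06). Csf2rb, the shared beta chain of the GM-CSF receptor, rose from 39.03 and 35.1 to 205 and 164 CPM (2.31 ± 0.36, adjusted p = 8.13e-06). Mef2c, a transcription factor of myeloid differentiation, fell from 48.3 and 31.6 to 1.07 and 3.24 CPM (-4.15 ± 0.52, adjusted p = 1.87e-08). The M-CSF receptor gene Csf1r was at 5707 and 5387 CPM untreated and 7874 and 7788 CPM after LPS (0.50 ± 0.41, adjusted p = 0.429). The summed level of the 14 neutrophil markers, which include Csf3r, moved with these values, from 5.14 and 16.4 to 127 and 169.7 CPM. The sum after LPS came mostly from S100a8, Csf3r and Mmp8, while Ly6g, Ltf, Ngp, Elane, Ctsg and Retnlg had no count and S100a9, Mpo and Prtn3 none after LPS. The part of neutrophils in these values was not tested. Ion channels and pumps had 8 of 27 tested genes that rose, 4 that fell and 15 that did not pass, with a median log2 difference of 0.79. 1 fell in DESeq2 and without untreated A, and 2 fell without LPS A, without LPS B, without untreated B and with all 21 libraries. Orai2, a calcium channel, rose from 30.8 and 19.9 to 285 and 252 CPM (3.39 ± 0.31, adjusted p = 5.29e-12). Atp1b3, of the sodium pump, rose from 304 and 270.1 to 1616 and 1804 CPM (2.57 ± 0.39). Clock genes and nuclear receptors had 1 of 10 tested genes that fell and 9 that did not pass, with a median log2 difference of -0.08. 2 fell with merged untreated libraries. The gene that fell was Nr1d2, the repressor REV-ERB beta, which fell from 12.3 and 15.2 to 1.07 and 1.08 CPM (12.7-fold lower, counting interval 3.17 to 111).

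**Figure D3:**
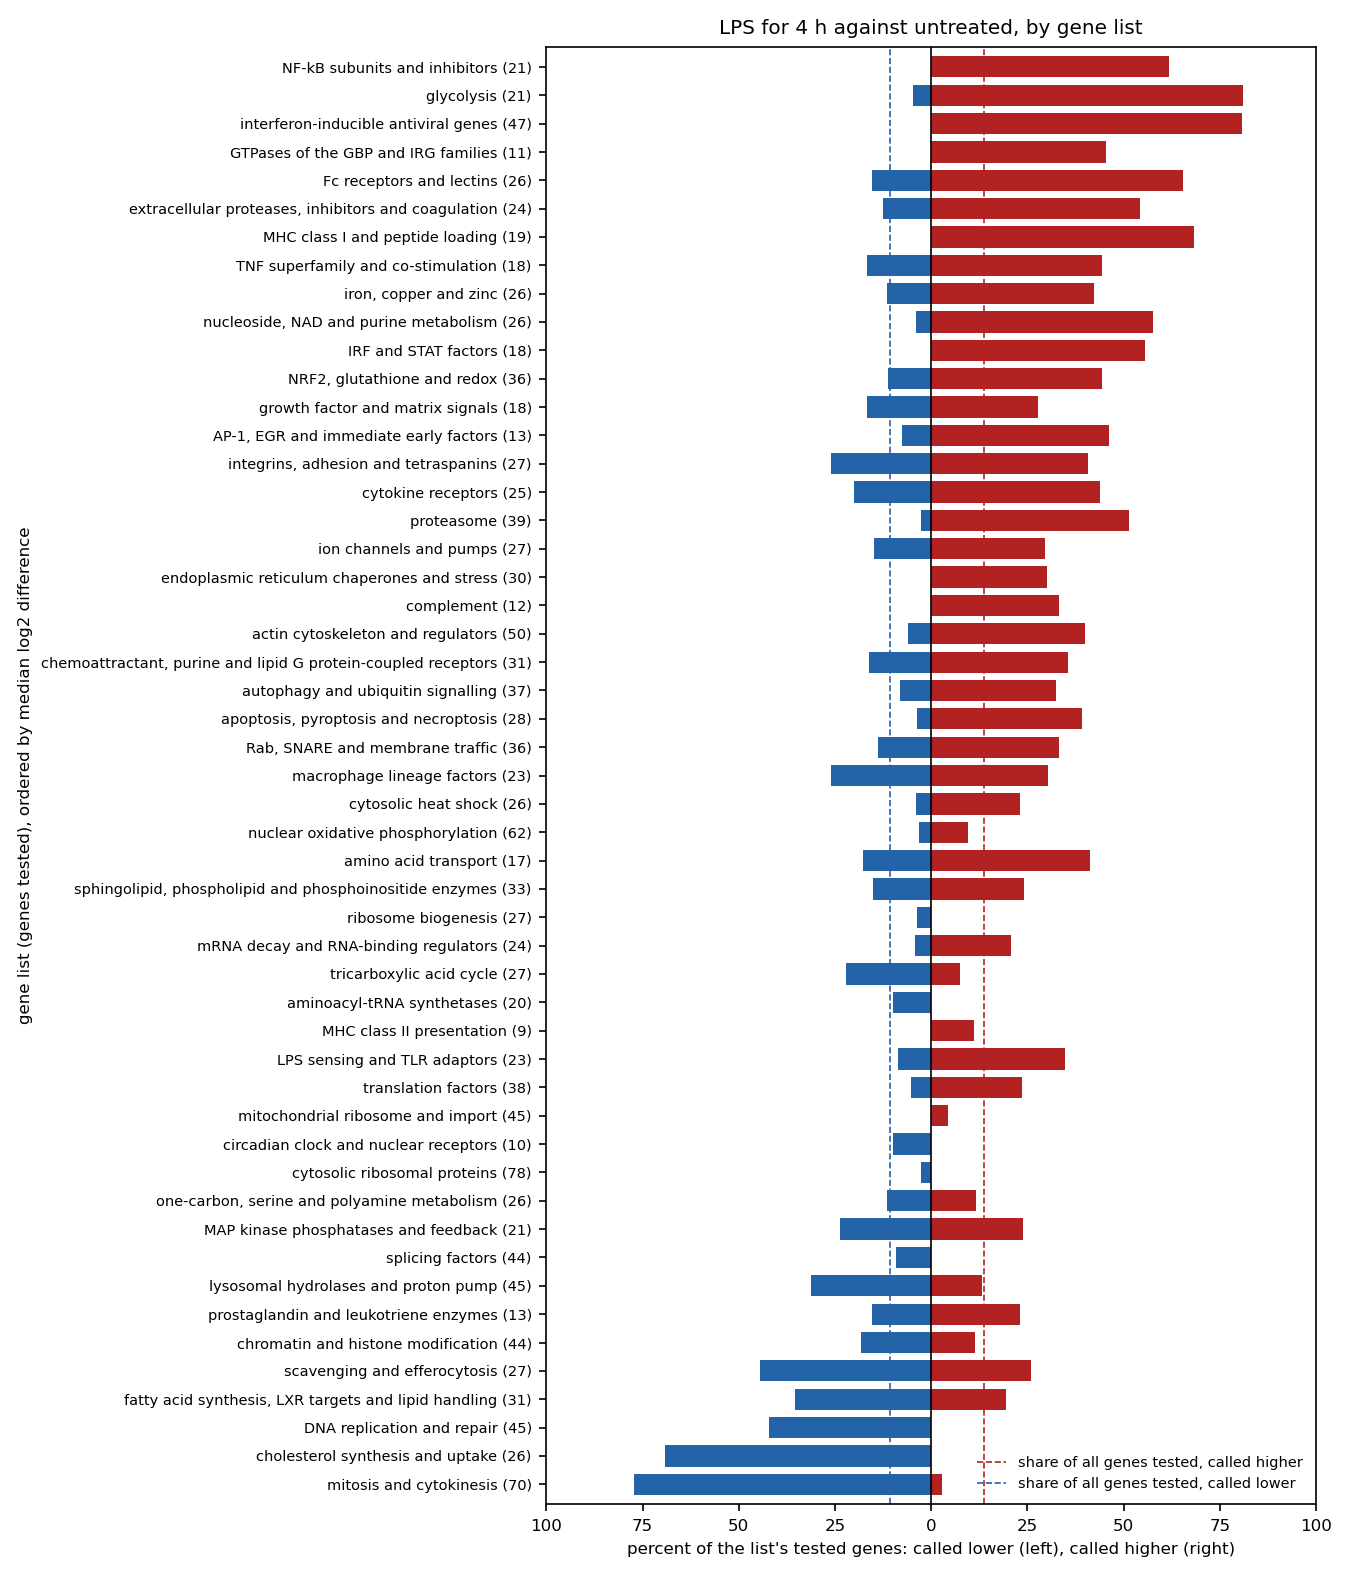
For each of the 51 gene lists, the percent of its tested genes called lower (blue, left) and called higher (red, right) after LPS for 4 h, ordered by median log2 difference (genes at 0 at their bound), with the number of genes tested in parentheses and dashed lines at the shares over all genes tested (10.8% and 13.6%). NF-kB, glycolysis and antiviral genes lie at the top, and mitosis, cholesterol synthesis and DNA replication at the bottom.

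The same exposure to LPS was also measured in cells that had received DMM or succinate, with their own unstimulated controls. Which of those controls belong to the 4 h set was read from column numbers, and no alternative without that reading was run. After DMM, LPS changed 2255 genes (29.5%), and after succinate, with 1 stimulated library, 1407 genes (18.4%). Of the 1041 genes that rose with LPS alone, 575 also rose after DMM, which is 55.2% of the first list and 59.5% of the second, and 668 also rose after succinate, which is 64.2% and 79.7%. Of the 830 genes that fell with LPS alone, 517 also fell after DMM (62.3% and 40.1%) and 392 after succinate (47.2% and 68.9%). Opposite calls were few: of the genes that rose, 11 fell after DMM and 4 after succinate, and of those that fell, 4 and 1 rose. The log2 difference had the same sign for 88% of the genes that rose and 91.4% of those that fell after DMM. After succinate these shares were 93.5% and 95.1%. The share of all genes tested with the same sign was not computed. Over all genes tested, 12.6% were called higher and 16.8% lower for LPS after DMM. The list medians were near those of LPS alone for glycolysis (2.07 after DMM and 2.73 after succinate) and mitosis (-4.29 and -3.46). Other lists lay further off, mainly after succinate. Cholesterol synthesis had -2.56 after DMM and -0.87 after succinate, against -2.41 with LPS alone. The GBP and IRG list had 2.30 and 0.15 against 1.86, and the antiviral genes 1.58 and 1.06 against 2.07. These lists were picked with their values in view.

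**Figure D4:**
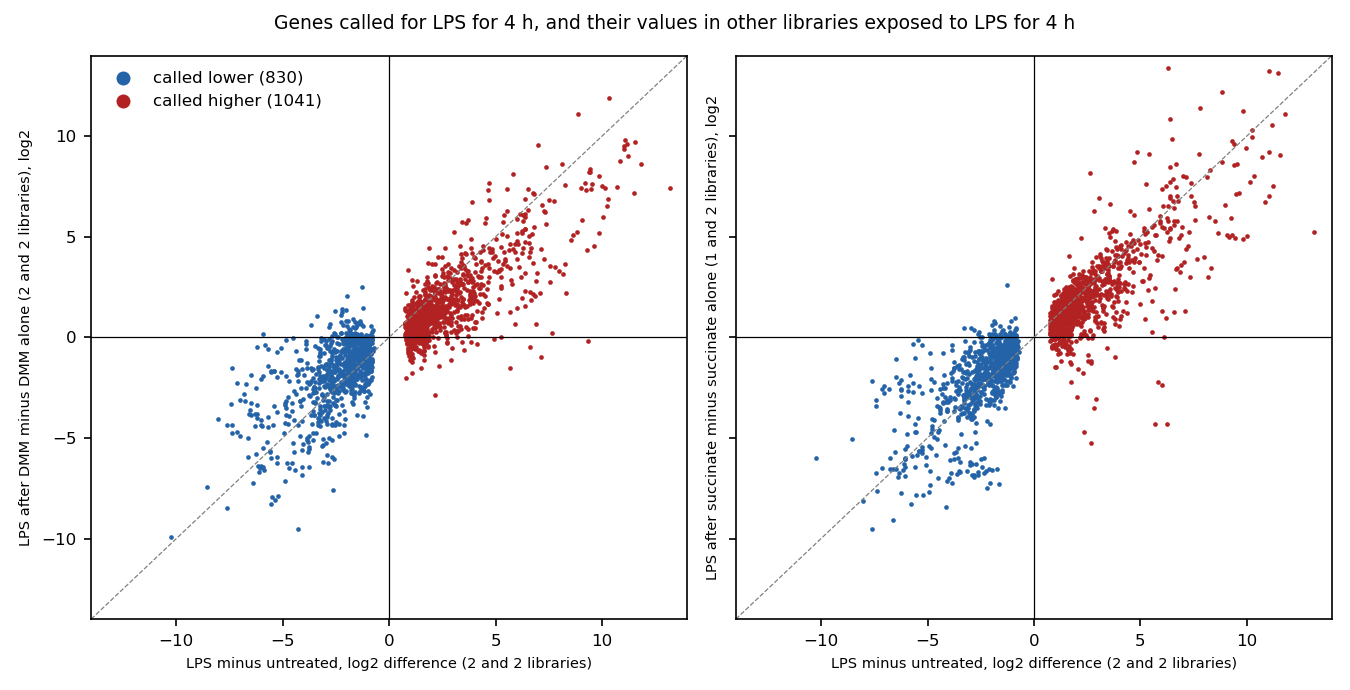
Log2 difference of the 1041 genes called higher (red) and the 830 called lower (blue) after LPS for 4 h against untreated (x axis) and the same genes for LPS after DMM against DMM alone or LPS after succinate against succinate alone (y axis), each point being 1 gene. Most points lie in the lower left and upper right, with 88% and 91.4% on the same side after DMM.

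The difference of the LPS effect with and without DMM was tested in the same fit and called for 465 genes (6.08%), 372 with a higher and 93 with a lower log2 difference without DMM. With all 21 libraries in the fit, 78 genes were called. Of the 465 genes, 233 were also called for LPS alone, and in 204 of these the change was larger in size without DMM. Selection by the call for LPS alone favours a larger change without DMM, so this count does not show which effect was larger. Cytosolic ribosomal protein genes held 57 of the 465: their median was -0.27 with LPS alone and -2.37 after DMM, where 73 of 78 fell. The actin list held 14, with medians of 0.68 and -0.47, and the proteasome list 8, with medians of 0.85 and -0.04.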

How the data were processed

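RNA was copied into full-length cDNA and sequenced, per the labels' protocols, which name no molecular identifiers. The deposited values are raw counts per gene symbol. TopHat2, Bowtie, HTSeq and edgeR are listed in the submitters' processing notes, while the sources used here give no version, genome build, annotation or use of strand. Columns were mapped to samples by name. The A and B libraries of untreated cells, and of cells given DMM or succinate alone, were assigned to the 4 h set from their numbering. The alternative with merged libraries covers the untreated ones only.

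Counts were tested with edgeR 4.0.16 (R 4.3.3, limma 3.58.1) by the quasi-likelihood test with robust dispersions and TMM scaling, in 1 model of 12 groups and 20 of the 21 libraries. The library labelled LPS 48 h replicate 1 was left out because it went against its label. Genes were kept by edgeR's filter by group (minimum count 10, total 15), and 7651 of 34573 remained. The model left 8 residual degrees of freedom, the common biological coefficient of variation came to 0.200, and groups with 1 library were assumed to vary like the others. The threshold was an adjusted p of 0.05.

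Members and lists were chosen with earlier results of these data known. Genes named are among the 12 highest and 12 lowest fitted folds outside the list set aside (higher arm's mean at least 50 CPM). That list holds well-known LPS genes and some others, and symbols of predicted or unnamed genes were left out as well. The 10 largest rises and falls in mean CPM, and up to 3 genes in each direction per list by p, are also named. A further rule, for abundant genes with a narrow interval around 0, named no gene. Of 1892 listed symbols, 1854 were in the table as listed and 31 were matched through an older symbol. Of 257 genes that the rule named, 57 have exons that overlap another gene in the GENCODE basic annotation. RefSeq (GRCm38.p6) was used for promoter windows and older symbols. Both may differ from the submitters' build. Gm12999, the cytokines with few counts, single markers and list members outside this rule, the uncalled ones among them, were picked with their values in view.

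The alternatives were DESeq2 1.42.0, median-of-ratios size factors, no filter, all 21 libraries, the 4 h set alone, the 4 libraries alone, merged untreated libraries, a replicate block, each library left out, and a filter needing 2 libraries, which was chosen after seeing the data. The statistical script was tested on simulated data. Replicates of a group differed beyond sampling noise, with a chi-square per degree of freedom of 4.95 for the untreated and 3.20 for the LPS pair, so each counted as 1 sample.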

Additional observations from a re-analysis of the deposited data

Results flagged for a closer look

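The effect of LPS at 4 h was tested for a difference between cells without and with DMM, and the difference was called for 465 genes by edgeR's quasi-likelihood test with BH adjustment, 372 with a higher and 93 with a lower log2 difference without DMM. Of these, 57 were among the 78 cytosolic ribosomal protein genes tested, whose median log2 difference was -0.27 without DMM and -2.37 after DMM.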

How the results depend on the processing

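The number of genes called for LPS 4 h against untreated, 1871, was 1183 in DESeq2, of which 1174 were shared in the same direction, and 1264 with all 21 libraries. It was 1690 to 2039 under the other alternatives that kept all 4 libraries, and 1360 to 1456 with 1 of them left out. After DMM, DESeq2 called 1434 genes against 2255, and with 1 library left out the count was 1495 (without replicate A of DMM and LPS) to 1830. After succinate, DESeq2 called 804 against 1407 and the fit of all 21 libraries 578, with 73.6% and 71.8% of the calls higher against 59.6%, and the count was 1006 to 1149 with 1 library left out. For the difference with and without DMM, the fit of all 21 libraries called 78 genes against 465, and DESeq2 called 364, 91.2% of them higher against 80%. No fits that leave out a library were run for that difference. The cause of these changes was not tested. Same-numbered libraries showed little shared deviation (correlations of -0.05 to 0.08 over 10 pairs of groups). These correlations run over all genes tested, many with few counts, where counting noise can hide a shared deviation. They do not decide whether the numbers pair the libraries. With a replicate block, 2015, 2444, 1503 and 678 genes were called for LPS alone, after DMM, after succinate and for the difference, and none of the 257 named genes lost its call. None of the 257 named genes reversed under an alternative that tested it (10 were not tested with the 4 libraries alone and 1 with the filter needing 2 libraries). The call was lost by 25 of them in DESeq2, 43 with all 21 libraries, 10 with merged untreated libraries, 9 without a filter, 1 in the 4 h set alone and 26 to 30 with 1 library left out. Depth limits the low genes most, and 8086 genes with at least 1 count in the 4 libraries were not tested.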
